A study of Mus musculus with 16 samples.

Results

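The aorta of mice with reduced kidney mass fed a high-protein, high-phosphate diet was compared with that of sham-operated mice, in 8 of the 16 libraries of the series. The members were the 4 libraries labelled 5/6 Nx-HPi-Hp (5/6 nephrectomy; 2% phosphorus and 18% protein) and the 4 labelled Sham (sham surgery; 2% phosphorus and 2.5% protein), taken by their labels and not by any measured value. All animals were C57BL/6J mice, per the study's methods male and 12 weeks old at surgery, and all 8 mice here ate the same share of phosphorus. The nephrectomy was done in 2 steps, and the diets began after 2 weeks of recovery and ran for 4 weeks by the methods and for 30 days by the labels. Surgery and dietary protein differed together between these groups, so a difference cannot be assigned to either: the 2 cannot be told apart here. The other 8 libraries came from 5/6 Nx mice on 2.5% protein with 2% phosphorus (5/6 Nx-HPi-Lp) or 0.3% phosphorus (5/6 Nx-LPi-Lp). Each label gives 1 animal per library, and RNA came from the entire aorta ground to powder, so each value is a mixture of media, endothelium, adventitia and whatever surrounded the vessel.

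The aortic media is built of smooth muscle cells (SMC), which contract through smooth muscle myosin and actin and can lose that program when phosphate is high and kidney function is low. Kidney failure also brings inflammation and altered mineral handling, and dietary protein sets the supply of amino acids and, through growth hormone, of insulin-like growth factor. Around the vessel lie adventitia, sympathetic nerves and perivascular fat, which near the thoracic aorta has features of brown adipose tissue.

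Total counts ran from 20795568 to 24204348 in the Sham libraries and from 13659525 to 18186113 in the 5/6 Nx-HPi-Hp libraries, so counting error was larger in the latter. Levels are given below as CPM, counts scaled to a fixed library total with TMM factors, in replicate order 1 to 4. The defining smooth muscle gene Myh11 was high in every library, as the tissue label requires. Transcripts of the mitochondrial genome took 4.18% to 6.34% of counts in Sham and 16.3%, 29.0%, 25% and 9.50% in 5/6 Nx-HPi-Hp replicates 1 to 4. On the first principal component, which held 63.67% of the variance, 5/6 Nx-HPi-Hp replicates 1 to 3 lay at 40.59, 53.63 and 69.68, Sham lay between -44.9 and -33.28, and 5/6 Nx-HPi-Hp replicate 4 lay at -8.541. Replicate 4 thus stood apart from its group in the direction of Sham, and list counts without it, or without Sham replicate 2, are given below for many of the lists in which they changed.

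Of 15882 genes tested, 1932 (12.2%) passed both thresholds used for a call, an adjusted p of at most 0.05 and a fold change of at least 2: 1495 (9.41%) were higher in 5/6 Nx-HPi-Hp and 437 (2.75%) were lower. The adjusted p alone was passed by 4990 genes. Counts called in the gene lists below are to be read beside 9.41% higher and 2.75% lower over all genes. For 5371 genes (33.8%) no 5/6 Nx-HPi-Hp library overlapped any Sham library, with 2208 (13.9%) higher and 3163 (19.9%) lower. The split of the calls depended on scaling: with total counts in place of TMM the median gene moved from 0.018 to -0.19 on the log2 scale, and 972 genes were called higher and 892 lower. Without 5/6 Nx-HPi-Hp replicate 4 there were 3161 calls, 2082 higher and 1079 lower, and without Sham replicate 2 there were 1091 (874 and 217). Lower calls numbered 256 and 242 without 5/6 Nx-HPi-Hp replicates 2 and 3. Of 130 called genes chosen for naming, 71 kept their call in each of 8 fits that left out 1 library, and none changed sign.

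**Figure D1:**
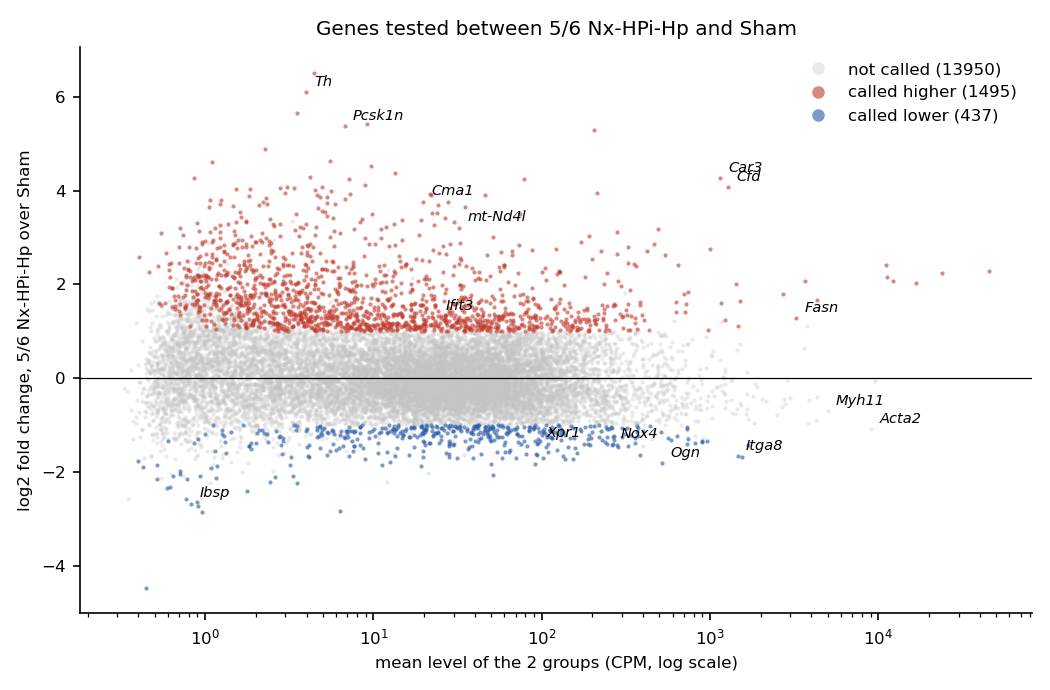
Each dot is 1 of 15882 genes, placed by its mean level in the 8 libraries (x, CPM, log scale) and its log2 fold change of 5/6 Nx-HPi-Hp over Sham (y). Red dots are the 1495 genes called higher and blue dots the 437 called lower, and the labels mark genes described in the text.

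Genes of the contractile apparatus were among those lower in 5/6 Nx-HPi-Hp. Of 22 SMC contractile genes tested, 6 fell and 1 rose, with a median log2 fold change of -0.69 beside 0.018 over all genes. Itga8, an integrin subunit of smooth muscle, stood at 2022, 2336, 2524 and 2078 CPM in Sham and at 550.3, 518, 242 and 1410.1 CPM in 5/6 Nx-HPi-Hp. Every 5/6 Nx-HPi-Hp library lay under every Sham library, replicate 4 nearest to them (log2 fold change -1.67 ± 0.43 (SE), adjusted p = 0.019), and the call was lost without Sham replicate 2 or 5/6 Nx-HPi-Hp replicate 2. Kcnmb1, which encodes the beta subunit of the large-conductance potassium channel of smooth muscle, fell, the most in replicates 1 to 3 (236, 263, 206 and 234 CPM in Sham, 67.6, 49.4, 28 and 175 CPM in 5/6 Nx-HPi-Hp; log2 fold change -1.5, adjusted p = 0.031, kept in 2 of 8 fits that left out 1 library). The other 4 that fell, named after their values were seen, were Cald1, Mylk, Synpo2 and Lmod1, which serve actin binding and myosin activation. The gene that rose, Casq2, is a calcium store protein of heart muscle and went with the cardiac genes described further on.

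The classical markers of contractile SMC did not pass the test, and their values were split between replicate 4 and the rest. Myh11, the smooth muscle myosin heavy chain, stood at 6184, 6729.8, 6399 and 5943 CPM in Sham and at 2916, 3414, 2122 and 6355 CPM in 5/6 Nx-HPi-Hp (log2 fold change -0.71 ± 0.31 (SE), adjusted p = 0.1). Acta2, smooth muscle actin, stood at 12240, 14517, 10932 and 12210 CPM and at 4332, 4224, 2189 and 11929 CPM in the same order (log2 fold change -1.09, adjusted p = 0.083). In both genes replicates 1 to 3 lay well under Sham and replicate 4 lay within its range. Cnn1, which encodes calponin, had a log2 fold change of -0.66 (adjusted p = 0.17), and Tagln, which encodes transgelin, had -0.39 (adjusted p = 0.32). The summed level of the 22 genes was 41290, 45020, 39720 and 41240 CPM in Sham and 19910, 20950, 12960 and 41170 CPM in 5/6 Nx-HPi-Hp. Without replicate 4, 12 of the 22 were called lower, and without Sham replicate 2 only 1 was, so the count changed with single libraries while the median stayed below 0 (-1.09 and -0.64). In bulk tissue, fewer cells of a type and less RNA per cell cannot be told apart.

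Genes of the phenotypes that SMC take on in calcifying vessels were examined next. Of 20 modulated SMC genes 2 fell and none rose, beside 2.75% and 9.41% of all genes (median log2 fold change -0.28). Without 5/6 Nx-HPi-Hp replicate 4, 4 were lower, and without Sham replicate 2, 0 were. At the adjusted p alone 5 were lower and 1 higher. Spp1, which encodes osteopontin, was low in both groups, at 1.58, 0.918, 1.4 and 1.54 CPM in Sham and 3.66, 4.41, 0.9 and 1.69 CPM in 5/6 Nx-HPi-Hp (adjusted p = 0.12). Lgals3, which encodes galectin 3, passed the adjusted p (0.046) but not the fold threshold (log2 fold change 0.39). The genes that fell were Myh10, a non-muscle myosin heavy chain (-1.01, adjusted p = 0.049), and Ibsp, the bone matrix protein bone sialoprotein, which ran from 0 to 0.484 CPM in 5/6 Nx-HPi-Hp and from 0.732 to 2.21 CPM in Sham.

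Among 17 osteochondrogenic genes tested, 2 rose and 1 fell, beside 9.41% and 2.75% of all genes. The median of 0.14 became -0.05 with total-count scaling and also without 5/6 Nx-HPi-Hp replicate 4, where 3 rose and 2 fell (1 and 0 without Sham replicate 2). Runx2, the transcription factor of bone formation, stood at 2.5, 2.1, 1.89 and 1.3 CPM in Sham and 1.77, 2.29, 1.27 and 2.3 CPM in 5/6 Nx-HPi-Hp, and the ranges overlapped (log2 fold change 0.04 ± 0.32 (SE), adjusted p = 0.94). Alpl, the phosphatase that removes pyrophosphate, had a log2 fold change of 0.23 ± 0.19 (SE) (adjusted p = 0.37). Bmp2, a bone morphogenetic protein, fell from 16.8, 14.9, 15.9 and 14.4 CPM to 8.23, 7.84, 2.17 and 10.1 CPM (log2 fold change -1.06, adjusted p = 0.04), a call kept in 1 of the 8 fits that left out a library. The cartilage collagens Col2a1 and Col11a1 rose from levels near or under 1 CPM in Sham. For Col2a1 the call was kept in 2 of those 8 fits. Col11a1 stood at 0, 0.306, 0.271 and 0.0791 CPM in Sham and at 0.753, 1.96, 1.42 and 1.15 CPM in 5/6 Nx-HPi-Hp, without overlap (adjusted p = 0.015), and kept its call in all 8 such fits.

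None of 17 mineralization inhibitors passed both thresholds, and 2 were called lower without 5/6 Nx-HPi-Hp replicate 4 (median -0.39, and -0.61 there). Mgp, which encodes matrix Gla protein, stood at 3001, 2492, 4327 and 3081 CPM in Sham and at 1789, 1854, 1192 and 2312 CPM in 5/6 Nx-HPi-Hp. All 4 of the latter were below all of the former, with an adjusted p of 0.039 and a log2 fold change of -0.79 ± 0.25 (SE), under the fold threshold. Enpp1, which makes pyrophosphate, had a log2 fold change of -0.51 (adjusted p = 0.11).

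Of the phosphate transporters 1 was called. Xpr1, the phosphate exporter, was the 1 called gene among 11 tested for phosphate and calcium handling: it stood at 143, 142, 128 and 140.3 CPM in Sham and fell to 46, 37.3, 25.8 and 95.1 CPM in 5/6 Nx-HPi-Hp (log2 fold change -1.38 ± 0.32 (SE), adjusted p = 0.014). That call was kept in all 8 fits without a library. Slc20a1, the sodium-phosphate importer PiT-1, stood at 34.8, 30.2, 28.8 and 40.7 CPM and at 47.5, 95.3, 58.9 and 42.9 CPM (log2 fold change 0.93, adjusted p = 0.021), with every 5/6 Nx-HPi-Hp library above every Sham library. Its relative Slc20a2 (PiT-2) was lower without overlap (log2 fold change -0.65, adjusted p = 0.03). Neither importer reached a fold of 2. Without 5/6 Nx-HPi-Hp replicate 4, 1 gene of the list was called higher and 2 lower.

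Structural matrix genes gave few calls. No call was made among 20 elastic fibre genes or 18 adventitial fibroblast genes, and of 25 collagen genes Col11a1 alone was called. Eln, which encodes elastin, stood at 3468, 3129.8, 1586 and 3565 CPM in Sham and 2408, 1599, 1672 and 5408 CPM in 5/6 Nx-HPi-Hp (adjusted p = 0.96), with replicate 4 the highest of the 8 libraries. Col1a1 and Col3a1, the main fibrillar collagens, had log2 fold changes of 0.08 and -0.19 (adjusted p = 0.89 and 0.59). Fbln5, an elastic fibre assembly protein, had -0.96 (adjusted p = 0.051), and the fibroblast genes Pi16, Dpt and Pdgfra had 0.53, -0.15 and -0.93 (adjusted p = 0.097, 0.61 and 0.047). Without 5/6 Nx-HPi-Hp replicate 4, 4 elastic fibre genes were called lower. The summed level of the elastic fibre genes was 9805, 9493, 7880 and 9479 CPM in Sham and 6847, 6024, 4787 and 12020 CPM in 5/6 Nx-HPi-Hp. That of the collagen genes was 11850, 11840, 9070 and 10400 CPM and 7737, 7559, 4759 and 14620 CPM. In both sums replicates 1 to 3 of 5/6 Nx-HPi-Hp lay under every Sham library and replicate 4 above them all.

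Of 21 metalloproteinases and inhibitors 2 rose, a share like the 9.41% of all genes, and 2 fell (median 0.23, and 0.048 with total-count scaling). Timp3, an inhibitor of metalloproteinases bound to matrix, fell from 282, 348, 347 and 267 CPM to 122, 78.4, 79.9 and 216 CPM without overlap (log2 fold change -1.27 ± 0.30 (SE), adjusted p = 0.014). Mmp9, a gelatinase, rose from 4.05, 4.72, 3.56 and 4.47 CPM to 9.84, 9.88, 6.97 and 7.98 CPM, again without overlap (log2 fold change 1.11 ± 0.20 (SE), adjusted p = 0.0095). Both calls were kept in all 8 fits without a library. Adam12, a membrane-bound protease, rose (log2 fold change 1.63, adjusted p = 0.02) and Mmp3, stromelysin 1, fell (-1.19, adjusted p = 0.046), with overlapping ranges in each, and these calls were kept in 3 and 2 of the 8. Mmp2 and Timp1 had log2 fold changes of 0.23 and 0.48 (adjusted p = 0.48 and 0.089).

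Of 19 TGF-beta and Ccn target genes, 1 fell (4 without 5/6 Nx-HPi-Hp replicate 4, 0 without Sham replicate 2). This was Inhba, a subunit of activin A, at 60, 53.6, 55.7 and 54 CPM in Sham and 19.6, 24, 10.6 and 48.8 CPM in 5/6 Nx-HPi-Hp (log2 fold change -1.06, adjusted p = 0.042, kept in 1 of 8 fits). Ctgf, a matricellular growth factor, had a log2 fold change of -0.63 ± 0.46 (SE) (adjusted p = 0.3).

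Among 36 vasoactive and renin-angiotensin genes tested 5 rose and 5 fell (8 and 8 without 5/6 Nx-HPi-Hp replicate 4, 2 and 2 without Sham replicate 2). Gucy1b1, a subunit of the guanylate cyclase that answers nitric oxide, fell from 181, 216, 202 and 217 CPM to 47.7, 50.6, 26.8 and 122 CPM (log2 fold change -1.67 ± 0.37 (SE), adjusted p = 0.012), and no libraries overlapped. Htr1b, a serotonin receptor, also fell (-1.43, adjusted p = 0.033), but its call was kept in 3 of the 8 fits. Among those that rose, Agtr1a, the angiotensin II receptor, went from 2.08, 1.92, 1.31 and 1.78 CPM to 3.28, 2.45, 4.42 and 4.87 CPM (log2 fold change 1.15, adjusted p = 0.02), and Nos2, the inducible nitric oxide synthase, rose from at most 1.03 CPM in Sham to between 1.64 and 4.27 CPM. Ace and Agt, the converting enzyme and the precursor of angiotensin, had adjusted p of 0.37 and 0.088.

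Nox4, the NADPH oxidase that smooth muscle expresses, was lower in every 5/6 Nx-HPi-Hp library. It stood at 322, 348, 484 and 395 CPM in Sham and at 139, 143, 78.1 and 200.4 CPM in 5/6 Nx-HPi-Hp (log2 fold change -1.41 ± 0.25 (SE), adjusted p = 0.0096). Nqo1, a quinone reductase of the antioxidant response, fell from 24.8, 28.5, 30.5 and 26.3 CPM to 12.9, 12.5, 8.85 and 15.1 CPM (log2 fold change -1.09, adjusted p = 0.009). In the same list of 30 tested genes 5 rose, led by Gpx3, the secreted glutathione peroxidase, at 206, 200.1, 244 and 203 CPM in Sham and 1551, 787, 1617 and 355 CPM in 5/6 Nx-HPi-Hp (log2 fold change 2.42 ± 0.42 (SE), adjusted p = 0.0094). Gsta4, a glutathione transferase, rose too (1.78, adjusted p = 0.016), and Hmox1, heme oxygenase 1, had 0.67 (adjusted p = 0.054). The list's median was 0.14, and -0.07 with total-count scaling, and without 5/6 Nx-HPi-Hp replicate 4 there were 8 higher and 3 lower.

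Of 30 heat shock and chaperone genes 4 fell and none rose, with a median of -0.61 (9 fell without 5/6 Nx-HPi-Hp replicate 4, and 1 without Sham replicate 2). Hspa1b and Hspa1a, the inducible members of the Hsp70 family, share nearly all of their coding sequence, so reads may have been divided between them. Hspa1b stood at 35.5, 211, 51.8 and 38.1 CPM in Sham and 17.5, 18.4, 14.2 and 26.6 CPM in 5/6 Nx-HPi-Hp, and Hspa1a at 36.1, 198, 46.1 and 35.5 CPM and 17.2, 15.8, 17.9 and 33.1 CPM. Sham replicate 2 was several times above the other Sham libraries in both genes, while the ranges of the groups did not overlap (log2 fold change -2.06 ± 0.55 (SE), adjusted p = 0.021, and -1.83 ± 0.55 (SE), adjusted p = 0.033). Leaving that library out took the log2 fold change of Hspa1b to -1.07 and that of Hspa1a to -0.85 and ended the call of Hspa1a, whose call was kept in 4 of 8 fits, and that of Hspa1b in 5. Hspa5, the chaperone of the endoplasmic reticulum, had -0.65 (adjusted p = 0.1).

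Endothelial genes gave 4 calls of 25, all higher (2 without Sham replicate 2, 2 with total-count scaling), while the common markers were not called. Kdr, the main receptor for vascular endothelial growth factor, stood at 12.7, 18.3, 19.4 and 16.6 CPM in Sham and rose to 65.1, 32.6, 79.1 and 34 CPM in 5/6 Nx-HPi-Hp (log2 fold change 1.73 ± 0.30 (SE), adjusted p = 0.0094). Robo4, an endothelial guidance receptor, rose from 5.43, 7.69, 11 and 5.73 CPM to 29.2, 17.8, 42.4 and 15.4 CPM (log2 fold change 1.89 ± 0.35 (SE), adjusted p = 0.0096). In both genes replicates 1 and 3 were highest, as in the adipocyte genes described next. Pecam1 was lower without overlap at less than 2-fold (log2 fold change -0.61, adjusted p = 0.026), and Cdh5 and Nos3 had 0.68 and 0.30 (adjusted p = 0.07 and 0.17). The ligand Vegfa rose from 60.3, 63.8, 72.4 and 61.8 CPM to 191, 139, 266 and 95.8 CPM (log2 fold change 1.5 ± 0.28 (SE), adjusted p = 0.0096). It was 1 of 2 hypoxia targets called higher among 24, a share near the 9.41% of all genes (3 without 5/6 Nx-HPi-Hp replicate 4, 1 without Sham replicate 2). The other was Pfkfb3, a regulator of glycolysis (1.10), while Car9 and Ankrd37, targets of the same pathway, had -0.35 and 0.53 (adjusted p = 0.41 and 0.32).

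Of 16 Notch pathway genes 2 rose, a share near the 9.41% of all genes (3 rose and 1 fell without 5/6 Nx-HPi-Hp replicate 4, 1 rose without Sham replicate 2). The 2 were ligands. Jag2 went from 19.5, 13.3, 18.1 and 21.6 CPM to 48.9, 36.3, 51.8 and 31.3 CPM (log2 fold change 1.29 ± 0.21 (SE), adjusted p = 0.0094), and Dll4 had a log2 fold change of 1.14 (adjusted p = 0.017). Notch3, the receptor of smooth muscle, Jag1 and Hey1 had adjusted p of 0.6, 0.19 and 0.27.

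**Figure D2:**
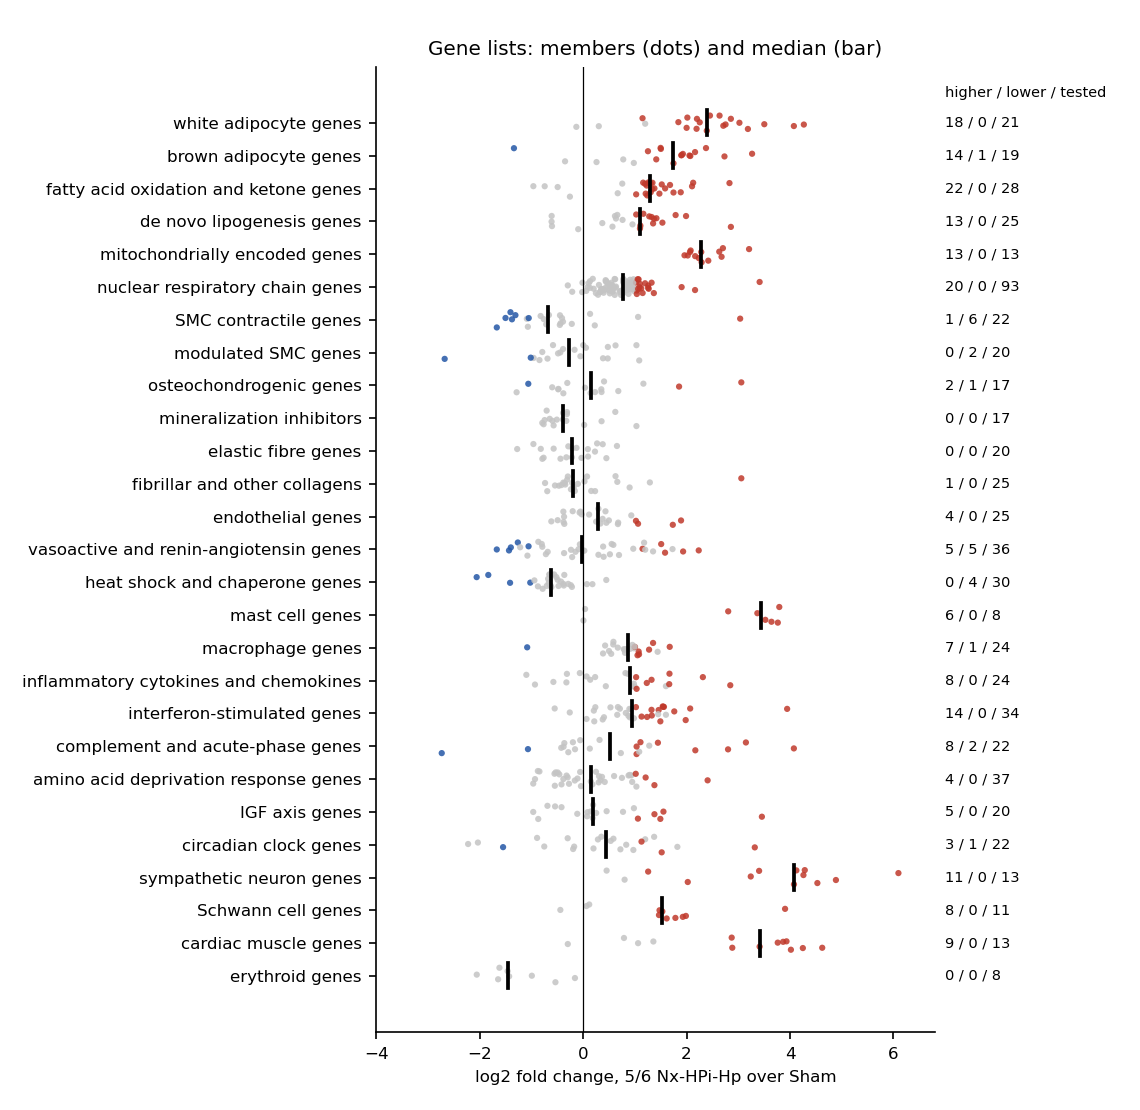
For 27 gene lists, each dot is 1 tested gene at its log2 fold change of 5/6 Nx-HPi-Hp over Sham (x), red if called higher, blue if called lower and grey if not called; the black bar is the median of the list. The numbers at the right give genes higher, lower and tested, and the adipocyte, mitochondrial, mast cell, neuron and cardiac lists lie to the right of 0.

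Genes of fat rose in 5/6 Nx-HPi-Hp. Of 21 white adipocyte genes 18 rose and none fell, with a median log2 fold change of 2.39, and of 19 brown adipocyte genes 14 rose and 1 fell (median 1.75; 7 rose without Sham replicate 2). Adipoq, which encodes the adipocyte hormone adiponectin, stood at 19.5, 43.7, 72.4 and 39.8 CPM in Sham and at 562, 208, 512 and 59.8 CPM in 5/6 Nx-HPi-Hp (log2 fold change 3.02 ± 0.65 (SE), adjusted p = 0.012). Plin1, the coat protein of lipid droplets, stood at 58.1, 107, 161 and 98.1 CPM and 806, 346, 874 and 163 CPM in the same order (log2 fold change 2.45 ± 0.52 (SE), adjusted p = 0.011). Replicates 1 and 3 of 5/6 Nx-HPi-Hp were highest and replicate 4 lay at the upper edge of Sham, with Sham replicate 3 the highest of its own group.

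A secreted protease and an abundant enzyme of adipocytes led the list. Cfd, which encodes the protease adipsin of the alternative complement pathway, rose from 105, 138, 263 and 100.1 CPM to 3338, 1116, 4806 and 328 CPM (log2 fold change 4.08 ± 0.76 (SE), adjusted p = 0.0096). Car3, carbonic anhydrase 3, rose from 58.1, 108, 251 and 63.8 CPM to 3331, 1208, 3766 and 404 CPM (log2 fold change 4.27 ± 0.76 (SE), adjusted p = 0.0095). In both even the lowest 5/6 Nx-HPi-Hp library, replicate 4, exceeded every Sham library. Lep, which encodes leptin, rose from 2, 2.71, 9.02 and 3.68 CPM to 23.2, 4.41, 40.9 and 6.23 CPM with overlap (log2 fold change 2.19, adjusted p = 0.042), a call kept in 3 of 8 fits.

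Thermogenic genes were highest in replicates 1 and 3 too. Ucp1, the uncoupling protein of brown fat, stood at 205, 431, 325 and 473 CPM in Sham and 1163, 490.3, 1442 and 523 CPM in 5/6 Nx-HPi-Hp (log2 fold change 1.41 ± 0.40 (SE), adjusted p = 0.027), a call kept in 3 of 8 fits without a library. Adrb3, the adrenergic receptor of adipocytes, rose further, from 16.9, 25.1, 24.2 and 30.9 CPM to 159, 72.4, 336 and 39.5 CPM (log2 fold change 2.73 ± 0.58 (SE), adjusted p = 0.011). Cidea, a lipid droplet protein, had a log2 fold change of 2.07 and Slc27a2, a fatty acid transporter, one of 3.27 (adjusted p = 0.012 and 0.0097). Elovl3, a fatty acid elongase that cold induces in brown fat, went the other way, from 16, 26.5, 38.3 and 33.7 CPM to 6.4, 4.82, 19.7 and 12.2 CPM (log2 fold change -1.34 ± 0.42 (SE), adjusted p = 0.037, kept in 3 of 8 fits).

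The summed level of the 21 white adipocyte genes was 2281, 3592, 5083 and 3456 CPM in Sham and 22170, 10720, 29130 and 5039 CPM in 5/6 Nx-HPi-Hp, so the highest Sham library was just above the lowest 5/6 Nx-HPi-Hp library. How much fat adhered to each aorta is not given, and its share in the differences of other gene groups cannot be told apart from surgery and diet in these 8 libraries. A fit with the mean log2 level of Adipoq, Plin1 and Lep as a covariate, chosen after the data were seen, called 38 genes, 38 higher and 0 lower (3248 at an unadjusted p below 0.05). With that covariate the median of the SMC contractile genes went from -0.69 to -0.04, that of the mitochondrially encoded genes from 2.28 to 1.74, and that of the sympathetic neuron genes from 4.08 to 5.30.

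Genes of fat breakdown and fat synthesis rose together. Of 28 fatty acid oxidation and ketone genes 22 rose and none fell (median 1.29). Acadm, the medium-chain acyl-CoA dehydrogenase, stood at 155, 197, 218 and 189 CPM in Sham and 580.0, 331, 716 and 189 CPM in 5/6 Nx-HPi-Hp (log2 fold change 1.34, adjusted p = 0.023). Angptl4, an inhibitor of lipoprotein lipase, rose from 22.2, 23.1, 10.1 and 20.5 CPM to 199.9, 141, 145 and 24.3 CPM (log2 fold change 2.83 ± 0.54 (SE), adjusted p = 0.0098) and Etfb, an electron carrier of fatty acid oxidation, had a log2 fold change of 2.13 (adjusted p = 0.0094). Cpt1a, the carnitine transferase of most tissues, was lower without overlap at under 2-fold (log2 fold change -0.74, adjusted p = 0.014).

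Of 25 de novo lipogenesis genes 13 rose and none fell (median 1.10). Fasn, fatty acid synthase, stood at 1185, 2376, 2518 and 1855 CPM in Sham and 4650.5, 2721, 8221 and 2566 CPM in 5/6 Nx-HPi-Hp, each 5/6 Nx-HPi-Hp library above the highest Sham library (log2 fold change 1.28 ± 0.41 (SE), adjusted p = 0.04). The call was kept in 2 of the 8 fits without a library, and that of Acaca, acetyl-CoA carboxylase, in 2. Dgat2 and Dgat1, which complete triglyceride synthesis, had log2 fold changes of 2.86 and 1.99 (adjusted p = 0.0097 and 0.0094) and kept their calls in all 8. Scd1, the stearoyl-CoA desaturase, had 1.11 (adjusted p = 0.075). Without Sham replicate 2, 4 lipogenesis genes and 6 fatty acid oxidation genes remained above the thresholds, with medians of 1.13 and 1.29. Cholesterol genes gave fewer calls, with 2 of 24 higher, Tm7sf2, a sterol reductase, and Acat2, an acetyl-CoA thiolase (3 higher and 2 lower without 5/6 Nx-HPi-Hp replicate 4, 1 and 0 without Sham replicate 2). Sqle, squalene epoxidase, had a log2 fold change of -0.62 (adjusted p = 0.12).

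All 13 protein-coding genes of the mitochondrial genome rose, with a median log2 fold change of 2.28. mt-Nd4l, a subunit of complex I, stood at 6.13, 6.34, 7.67 and 6.44 CPM in Sham and 55, 77.6, 79.7 and 20.4 CPM in 5/6 Nx-HPi-Hp (log2 fold change 3.21 ± 0.38 (SE), adjusted p = 0.0074). mt-Co3, a subunit of complex IV, had a log2 fold change of 2.70 (adjusted p = 0.012). In mt-Nd4l replicate 2 was close to replicate 3, the highest, whereas in the adipocyte genes it lay well below replicates 1 and 3. Nuclear genes of the respiratory chain rose less, 20 of 93 with a median of 0.77 (40 without 5/6 Nx-HPi-Hp replicate 4, 5 without Sham replicate 2). The largest change among them was in Cox6a2, the heart and muscle form of a complex IV subunit (3.41), and Cox8b, the form of brown fat and muscle, had 2.16 (adjusted p = 0.043 and 0.013). The call of Cox6a2 was kept in 2 of the 8 fits without a library and that of Cox8b in all 8. Of 80 cytosolic ribosomal protein genes none was called (median -0.27). Without overlap 38 were lower and 6 higher, beside 19.9% lower and 13.9% higher over all genes.

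**Figure D3:**
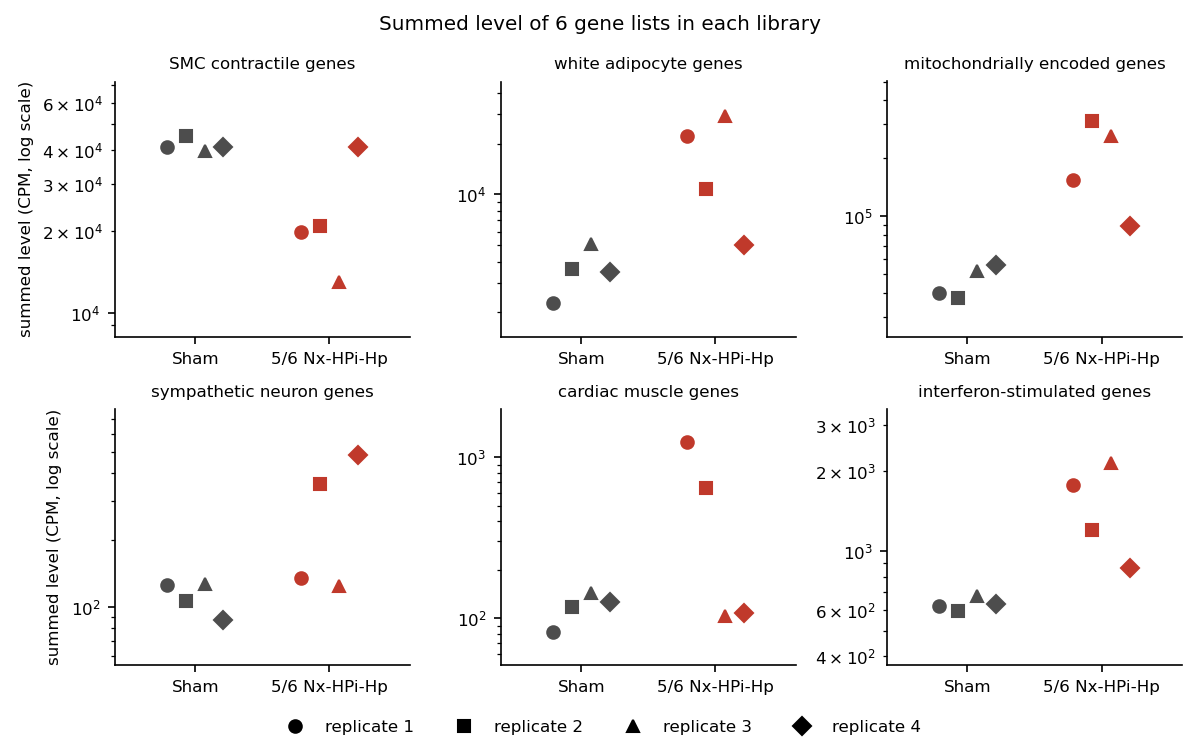
Summed level of 6 gene lists (y, CPM, log scale) in each Sham (grey) and 5/6 Nx-HPi-Hp (red) library, the shape giving the replicate number. Replicate 4 of 5/6 Nx-HPi-Hp matches Sham in contractile genes, lies near Sham in white adipocyte genes and is highest in sympathetic neuron genes, while cardiac genes are high in replicates 1 and 2.

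Of 24 macrophage genes 7 rose and 1 fell (median 0.87), while 11 rose without 5/6 Nx-HPi-Hp replicate 4 and 3 with total-count scaling. Cd68, a lysosomal protein of macrophages, stood at 6.44, 6.47, 7.26 and 4.55 CPM in Sham and 13.6, 16.3, 8.77 and 10.2 CPM in 5/6 Nx-HPi-Hp (log2 fold change 1.05 ± 0.23 (SE), adjusted p = 0.013). Csf1r, the receptor that keeps macrophages alive, was higher without overlap at under 2-fold (0.91, adjusted p = 0.011), as was Adgre1, the F4/80 antigen, with overlap (0.95, adjusted p = 0.048). Itgax, the CD11c integrin, rose (log2 fold change 1.67, adjusted p = 0.016), as did Aif1 (1.35, adjusted p = 0.012). Gpnmb, a glycoprotein of lipid-laden macrophages, fell with overlap (-1.08, adjusted p = 0.036, kept in 2 of 8 fits). Sums over the 24 genes were 340.1, 373, 347 and 259 CPM in Sham and 692, 583, 372 and 494 CPM in 5/6 Nx-HPi-Hp.

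Of 10 mast cell genes 8 passed the low-count filter and 6 of these rose (median 3.45). Genes near 0 in Sham could pass that filter only through the 5/6 Nx-HPi-Hp libraries, so the count and median of such a list are partly set by the filter, here as in the neuron and cardiac lists described further on. Mcpt4, a mast cell chymase, stood at 1.66, 5.03, 11.9 and 3.48 CPM in Sham and 139, 63.7, 25.3 and 31.3 CPM in 5/6 Nx-HPi-Hp (log2 fold change 3.64 ± 0.68 (SE), adjusted p = 0.0096). Cma1, another chymase, and Cpa3, the mast cell carboxypeptidase, had log2 fold changes of 3.76 ± 0.72 (SE) and 3.37 ± 0.69 (SE) (adjusted p = 0.0098 and 0.011). Fcer1a, the chain of the receptor that binds IgE, rose from at most 0.277 CPM in Sham to between 0.6 and 5 CPM. Replicate 1 of 5/6 Nx-HPi-Hp was highest in all 4 genes, and no library of that group fell within the Sham range.

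Chemokines and cytokines gave 8 calls of 24, all higher (median 0.91), and 4 without Sham replicate 2, while total-count scaling gave 5 higher and 1 lower. At the adjusted p alone 8 were higher and 2 lower. The summed level of the list was not higher, at 485, 476.1, 447.1 and 402.9 CPM in Sham and 490.2, 351.6, 362.4 and 387.9 CPM in 5/6 Nx-HPi-Hp. Cxcl9, a chemokine that interferon gamma induces, stood at 0.963, 1.09, 1.49 and 0.593 CPM in Sham and 7.53, 6.12, 13.3 and 1.09 CPM in 5/6 Nx-HPi-Hp, with replicate 4 inside the Sham range (log2 fold change 2.85 ± 0.63 (SE), adjusted p = 0.013). Tnf rose from at most 0.514 CPM to between 0.645 and 1.5 CPM (adjusted p = 0.046), a call kept in 2 of 8 fits. Ccl2, the monocyte chemokine, had a log2 fold change of 1.0 ± 0.41 (SE) (adjusted p = 0.084), while Il6 and Il1b were too low to be tested, with Il6 at most 0.0547 CPM. Of 9 MHC class II genes 2 rose (4 without 5/6 Nx-HPi-Hp replicate 4, 0 with total-count scaling): H2-Ab1 from 40.2, 50.8, 56.3 and 27.4 CPM to 130.4, 80.8, 63.8 and 68.9 CPM (log2 fold change 1.05, adjusted p = 0.019) and H2-Eb1 (1.05, adjusted p = 0.02). H2-Aa had 0.87 (adjusted p = 0.041).

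Antibody genes rose in 3 of 11 tested B and plasma cell genes (2 without Sham replicate 2), and T cell genes in 1 of 15. Jchain, which joins IgM and IgA units, stood at 0.886, 1.35, 0.406 and 1.11 CPM in Sham and 5.86, 4.57, 37.2 and 2.73 CPM in 5/6 Nx-HPi-Hp, the most in replicate 3 (log2 fold change 3.82 ± 0.85 (SE), adjusted p = 0.013). Igkc, the kappa light chain, had 2.11 (adjusted p = 0.016). The B cell markers Cd79a and Ms4a1 had 0.25 and -1.0 (adjusted p = 0.73 and 0.24), and the T cell and thymocyte markers Cd3e, Cd8a and Rag1 had -1.11, -1.55 and -1.25 (adjusted p = 0.24, 0.17 and 0.26). The T cell gene called, Cd1d1, encodes a lipid-presenting molecule found on other cells too (2.35).

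Of 34 interferon-stimulated genes 14 rose and none fell, with a median of 0.96. Without Sham replicate 2, 10 rose, with total-count scaling 10, and with the adipocyte covariate 1. Their summed level was 618, 594, 678 and 628 CPM in Sham and 1781, 1205, 2145 and 865 CPM in 5/6 Nx-HPi-Hp, highest in replicates 1 and 3 as in the adipocyte genes. Ifit1 and Ifit3, which bind viral RNA or assist in that, are transcribed in the same direction on mouse chromosome 19. Ifit1 stood at 3.28, 3.02, 4.06 and 5.38 CPM in Sham and 11, 7.35, 7.72 and 15.4 CPM in 5/6 Nx-HPi-Hp (log2 fold change 1.46 ± 0.29 (SE), adjusted p = 0.0099), and Ifit3 at 11.1, 10.2, 22.8 and 12.8 CPM and 37.7, 30.2, 32.8 and 34.6 CPM (log2 fold change 1.32 ± 0.24 (SE), adjusted p = 0.0096). Both kept their calls in all 8 fits without a library, and in Ifit1 replicate 4, near Sham in most other groups, was the highest of the 8.

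The 250 bases before the start of each gene are shown because both hold 2 copies of the interferon-response letters (GAAA, any 2 bases, GAAA), read here on the opposite strand and printed in capitals (RefSeq, build GRCm38.p6). The Ifit1 window lies at chr19:34640639-34640888, plus strand, and the Ifit3 window at chr19:34583279-34583528, plus strand.
Ifit1: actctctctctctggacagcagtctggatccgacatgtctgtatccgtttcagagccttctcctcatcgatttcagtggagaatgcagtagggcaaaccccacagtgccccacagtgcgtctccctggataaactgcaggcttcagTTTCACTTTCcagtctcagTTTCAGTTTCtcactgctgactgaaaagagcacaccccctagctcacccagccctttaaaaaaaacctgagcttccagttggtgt
Ifit3: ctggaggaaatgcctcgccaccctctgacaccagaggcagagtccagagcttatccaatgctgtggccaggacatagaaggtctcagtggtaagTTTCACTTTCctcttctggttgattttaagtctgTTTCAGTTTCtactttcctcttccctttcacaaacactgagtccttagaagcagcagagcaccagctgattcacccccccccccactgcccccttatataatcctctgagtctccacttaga
Searched on both strands, these letters were in the same window of 936 of 27025 gene symbols (3.46%). Of the 35 interferon-stimulated genes 22 had an entry and 15 of those held the letters, and of the 8 called genes with an entry 4 did. Such a match describes the sequence and is no evidence of binding.

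The gene of this list that rose most had the library order of the fat genes. Ifi27l2a stood at 21.3, 22.3, 40.1 and 26.7 CPM in Sham and 578, 193, 744 and 86.4 CPM in 5/6 Nx-HPi-Hp, highest in replicates 1 and 3 (log2 fold change 3.95 ± 0.63 (SE), adjusted p = 0.0093). Oasl1 rose from low levels (2.07, adjusted p = 0.027, kept in 3 of 8 fits). Isg15, a ubiquitin-like protein, was higher without overlap at under 2-fold (log2 fold change 0.93, adjusted p = 0.017).

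Complement and acute-phase genes gave 8 calls higher and 2 lower of 22 (median 0.52), and 5 and 1 without Sham replicate 2. C3, the central complement component, stood at 247, 242, 247 and 171 CPM in Sham and 739, 327, 457 and 237 CPM in 5/6 Nx-HPi-Hp (log2 fold change 1.03, adjusted p = 0.035, kept in 2 of 8 fits), and C4b had 1.11 (adjusted p = 0.012). Serpina3c, a protease inhibitor, rose (3.15, adjusted p = 0.016), and Cfd, described above, is in this list too. Saa3, an acute-phase amyloid protein, fell to at most 0.43 CPM from between 0.732 and 2.8 CPM (adjusted p = 0.035), and Lcn2, lipocalin 2, had 1.09 (adjusted p = 0.19).

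**Figure D4:**
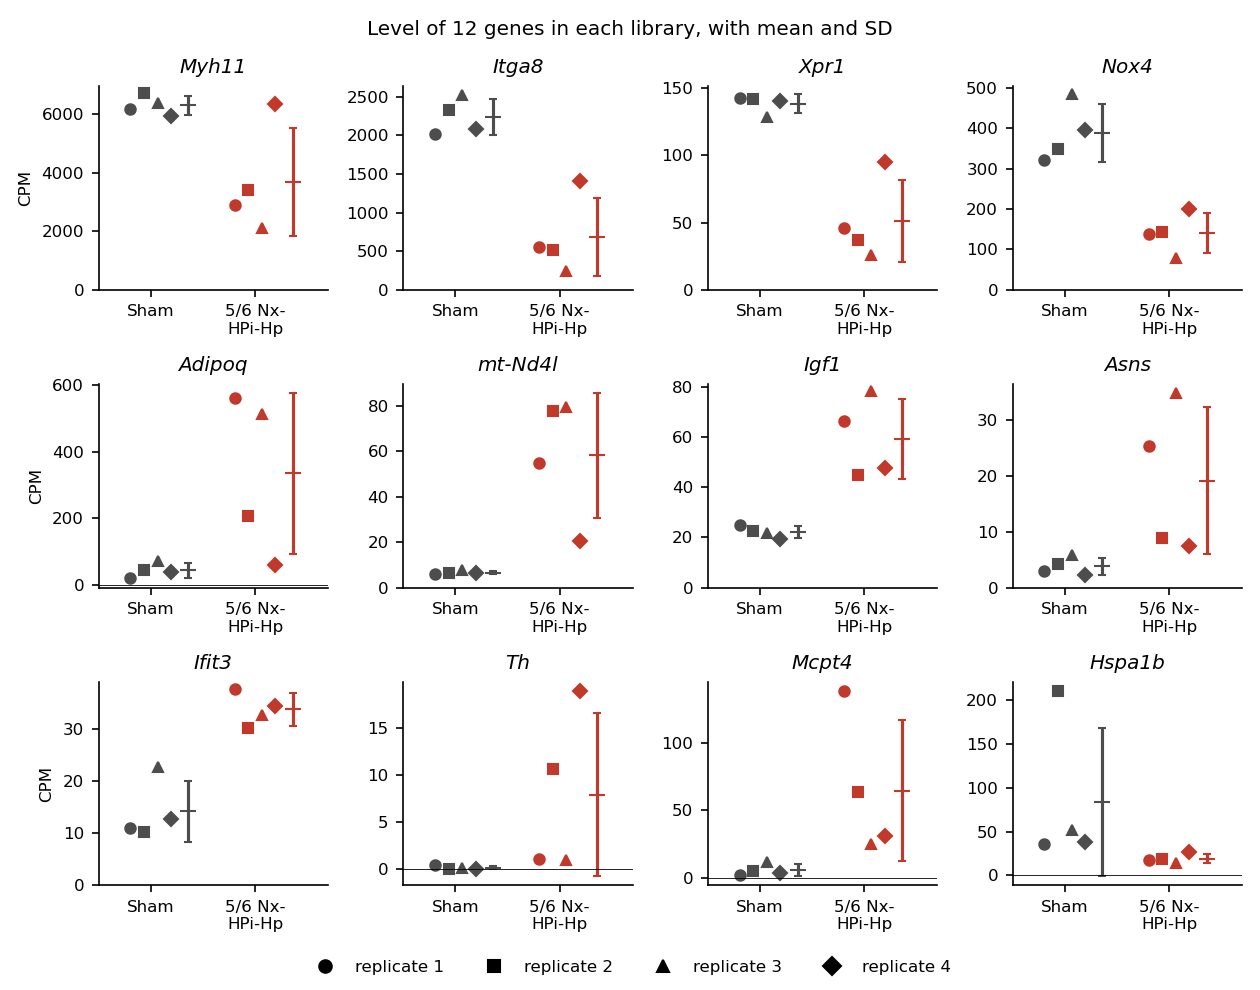
Level of 12 genes (y, CPM from 0) in each Sham (grey) and 5/6 Nx-HPi-Hp (red) library, the shape giving the replicate and the bar the mean with SD (n = 4). Igf1, Ifit3, Nox4 and Xpr1 do not overlap between groups, Myh11 and Adipoq do, and Sham replicate 2 alone is far up in Hspa1b.

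Genes tied to amino acid supply gave few calls. Of 37 amino acid deprivation response genes 4 rose, a share near the 9.41% of all genes, and none fell (median 0.15, and -0.06 with total-count scaling). Without 5/6 Nx-HPi-Hp replicate 4, 8 rose and 4 fell. Asns, asparagine synthetase, stood at 3.01, 4.28, 5.77 and 2.33 CPM in Sham and 25.3, 8.98, 34.9 and 7.55 CPM in 5/6 Nx-HPi-Hp, without overlap (log2 fold change 2.41 ± 0.51 (SE), adjusted p = 0.011). Replicates 1 and 3 were highest, as in the adipocyte genes, and in the fit with the adipocyte covariate the log2 fold change of Asns was 0.48 (adjusted p = 0.44). In that fit 5 of the 130 called genes chosen for naming passed both thresholds, so the lost call was not particular to Asns. Its cause was not tested. Phgdh, the first enzyme of serine synthesis, rose with overlap (1.38, adjusted p = 0.03, kept in 3 of 8 fits). Atf4, the transcription factor of this response, and Trib3, one of its targets, had log2 fold changes of -0.11 ± 0.14 (SE) and 0.34 ± 0.29 (SE) (adjusted p = 0.58 and 0.38). The Asns window (chr6:7693210-7693459, minus strand) is shown because it holds the amino acid response letters TGATGNAA, in capitals, 15 bases before the start.
Asns: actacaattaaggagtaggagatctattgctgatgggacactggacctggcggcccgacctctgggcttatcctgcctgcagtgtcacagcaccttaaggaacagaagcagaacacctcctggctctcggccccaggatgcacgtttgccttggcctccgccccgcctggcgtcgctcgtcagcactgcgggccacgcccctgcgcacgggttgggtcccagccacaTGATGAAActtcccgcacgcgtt
Those letters, searched on both strands, were in 1056 of 27025 such windows (3.91%) and in 11 of 31 list members with an entry. Atf3, Chac1 and Slc7a11 are others of the list whose window holds them.

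Igf1, insulin-like growth factor 1, whose release by the liver falls with protein restriction, stood at 25.2, 22.5, 21.8 and 19.3 CPM in Sham and 66.4, 44.8, 78.4 and 47.7 CPM in 5/6 Nx-HPi-Hp. No library overlapped (log2 fold change 1.49 ± 0.20 (SE), adjusted p = 0.0076), and the call was kept in all 8 fits without a library. Of 20 IGF axis genes 5 rose and none fell, beside 9.41% and 2.75% of all genes (median 0.19). Total-count scaling gave 3 higher and 1 lower (median -0.02), without 5/6 Nx-HPi-Hp replicate 4 there were 6 higher and 2 lower, and without Sham replicate 2 there were 2 higher. Igfals, which stabilises circulating IGF complexes, rose from at most 2.44 CPM in Sham to 14.6, 5.55, 16.3 and 2.35 CPM (log2 fold change 3.46, adjusted p = 0.013), and Igfbp2 and Igfbp3, binding proteins, had 1.55 and 1.06 (adjusted p = 0.018 and 0.032). Igf1r, the receptor, was lower without overlap at under 2-fold (-0.87, adjusted p = 0.029).

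Fbxo32, the ubiquitin ligase atrogin-1 of wasting muscle, fell from 87.4, 82.4, 88.7 and 90.6 CPM to 32.1, 38.8, 19.3 and 55.5 CPM (log2 fold change -1.20 ± 0.25 (SE), adjusted p = 0.011), the 1 call among 17 protein breakdown and growth arrest genes (without 5/6 Nx-HPi-Hp replicate 4, 2 others rose). Trim63, the other ligase of muscle wasting, was too low to be tested. Of 21 glucocorticoid response genes 2 rose and 1 fell (4 and 2 without 5/6 Nx-HPi-Hp replicate 4, 2 and 0 without Sham replicate 2). Pdk4, which spares glucose, and Angptl4 rose and Errfi1, an inhibitor of the epidermal growth factor receptor, fell (1.68, 2.83 and -1.44), while Fkbp5, Tsc22d3 and Per1, common reporters of the hormone, had -0.62, 0.12 and 1.37 (adjusted p = 0.3, 0.86 and 0.056).

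Clock genes varied between animals of both groups, and the hour of collection is not given in the sources used here. Arntl, which drives the clock, stood at 40.7, 25.8, 2.12 and 11.9 CPM in Sham and 1.51, 1.55, 0.9 and 12.4 CPM in 5/6 Nx-HPi-Hp (adjusted p = 0.088). Dbp, an output gene, stood at 27, 54.1, 179 and 309.6 CPM and 582, 575, 573 and 188 CPM (adjusted p = 0.064). Sham replicates 1 and 2 were high in Arntl and low in Dbp, and 5/6 Nx-HPi-Hp replicates 1 to 3 were the reverse. Of 22 clock genes 3 rose and 1 fell (7 and 4 without 5/6 Nx-HPi-Hp replicate 4, 1 and 0 without Sham replicate 2). Ciart, a repressor of the clock, rose from 1.73, 2.36, 9.83 and 9.17 CPM to 54.6, 66.1, 89.8 and 7.55 CPM, replicate 4 inside the Sham range (log2 fold change 3.32 ± 0.76 (SE), adjusted p = 0.014); Usp2, a deubiquitinase under clock control, rose and Nfil3, a repressor that opposes Dbp, fell (1.52 and -1.55, adjusted p = 0.035 and 0.035, kept in 2 and 3 of 8 fits). Nr1d1 had 0.59 (adjusted p = 0.31). The Ciart window (chr3:95882229-95882478, minus strand) holds 3 copies of the E-box CACGTG, in capitals, through which the clock acts.
Ciart: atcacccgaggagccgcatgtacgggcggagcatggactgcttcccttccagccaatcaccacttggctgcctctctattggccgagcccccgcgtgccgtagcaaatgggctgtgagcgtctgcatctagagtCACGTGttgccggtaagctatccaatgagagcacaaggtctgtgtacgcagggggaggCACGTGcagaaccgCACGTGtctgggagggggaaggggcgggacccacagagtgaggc
This palindrome was in 1854 of 27025 windows (6.86%) and in 5 of 18 clock genes with an entry.

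Growth and stress signalling genes had few calls. Of 29 immediate early genes 5 rose (1 without Sham replicate 2), among them Junb and Nr4a1 (log2 fold change 1.46 and 1.57, adjusted p = 0.019 and 0.024), while Fos, Egr1 and Jun had 0.97, 0.46 and -0.26 (adjusted p = 0.19, 0.21 and 0.22). Replicate 2 of 5/6 Nx-HPi-Hp was highest in Nr4a1, at 114, 299, 58.4 and 89.1 CPM beside 55.8, 44.9, 41.5 and 56.4 CPM in Sham. In the MAPK list 4 of 35 rose, a share near the 9.41% of all genes (6 rose and 1 fell without 5/6 Nx-HPi-Hp replicate 4). Mapk11, the beta form of p38, rose from 2.97, 2.4, 2.35 and 3.76 CPM to 9.25, 10.1, 11.3 and 7.22 CPM (log2 fold change 1.79 ± 0.24 (SE), adjusted p = 0.0089) and Mapk12, the gamma form, from 42.4, 30.8, 43.8 and 55.1 CPM to 110.1, 193, 171 and 60.2 CPM (1.71, adjusted p = 0.01). Mapk14, the alpha form, was higher without overlap by much less (90.5, 84.8, 84.6 and 83.5 CPM and 107, 109, 105 and 104 CPM; 0.38 ± 0.10 (SE), adjusted p = 0.023), and Dusp1 had 0.33 (adjusted p = 0.36).

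Cell cycle genes were called in both directions, 2 higher and 2 lower of 35 (median 0.19, and -0.03 with total-count scaling, which left 0 higher), and 1 and 1 without Sham replicate 2. Mcm4, a helicase subunit of DNA replication, fell from 13.6, 13.9, 15.2 and 15 CPM to 8.12, 5.14, 3.67 and 6.45 CPM (log2 fold change -1.23 ± 0.22 (SE), adjusted p = 0.0096) and Rrm2, ribonucleotide reductase, fell on the edge of the threshold (-1.01, kept in 0 of 8 fits). Ccne1 and Ccnd1, cyclins of the G1 phase, rose (1.45 and 1.07, adjusted p = 0.049 and 0.016). The proliferation markers Mki67 and Top2a had 0.54 and -0.36 (adjusted p = 0.29 and 0.56), and Mcm2 had -0.52 (adjusted p = 0.091).

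Of 18 sympathetic neuron genes 13 passed the low-count filter and 11 of these rose (median 4.08). Their summed level was 125, 106, 126 and 87.7 CPM in Sham and 135, 356, 124 and 484 CPM in 5/6 Nx-HPi-Hp. Th, tyrosine hydroxylase, which starts catecholamine synthesis, stood at 0.385, 0, 0.0451 and 0 CPM in Sham and 1.02, 10.6, 0.9 and 18.9 CPM in 5/6 Nx-HPi-Hp (log2 fold change 6.10 ± 1.28 (SE), adjusted p = 0.011). Chga, chromogranin A of secretory granules, and Slc6a2, the noradrenaline transporter, had log2 fold changes of 4.89 ± 0.92 (SE) and 4.53 ± 0.87 (SE) (adjusted p = 0.0096 and 0.0098). Dbh and Npy, at 1.88, 23.2, 0.15 and 39.7 CPM and 1.77, 31.8, 0.3 and 30 CPM in 5/6 Nx-HPi-Hp and at most 0.316 CPM in Sham, were low in too many libraries to be tested. Replicates 2 and 4 carried most of these transcripts and replicates 1 and 3, the richest in adipocyte genes, the fewest. The adrenal enzyme Pnmt rose (2.67, adjusted p = 0.011), and the steroid gene Star had 0.50 (adjusted p = 0.12). Whether ganglia or nerve trunks were collected with some aortas was not tested.

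Schwann cell genes, which serve myelin and nerve sheaths, rose in 8 of 11 (median 1.53). Their summed level differed much less, at 291.5, 277.6, 287.7 and 284.5 CPM in Sham and 270.9, 336, 307.8 and 397.8 CPM in 5/6 Nx-HPi-Hp. In that sum replicate 1 of 5/6 Nx-HPi-Hp lay under every Sham library. Sox10, a transcription factor of the glial lineage, stood at 2.81, 1.44, 3.11 and 1.94 CPM in Sham and 4.46, 9.88, 6.82 and 9.57 CPM in 5/6 Nx-HPi-Hp (log2 fold change 1.78 ± 0.33 (SE), adjusted p = 0.0096). Foxd3, a neural crest transcription factor, stood at 0.694, 1.49, 0.992 and 0.751 CPM and 2.85, 3.76, 3.6 and 4.65 CPM in the same order (log2 fold change 1.99 ± 0.33 (SE), adjusted p = 0.0094). No 5/6 Nx-HPi-Hp library overlapped Sham in either gene.

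Of 16 cardiac muscle genes 13 passed the filter and 9 of these rose (median 3.41), with most of the transcripts in 2 libraries, and 2 rose without Sham replicate 2. Myh6, the atrial myosin heavy chain, stood at 1, 11.3, 17.2 and 3.6 CPM in Sham and 405, 173, 10.9 and 4.21 CPM in 5/6 Nx-HPi-Hp (log2 fold change 4.25, adjusted p = 0.036, kept in 2 of 8 fits). Myl7, an atrial myosin light chain, and Tnni3, cardiac troponin I, were at 98.4, 53.8, 5.77 and 5.19 CPM and 77.9, 84.3, 21.9 and 10 CPM in 5/6 Nx-HPi-Hp, without overlap with Sham (adjusted p = 0.017 and 0.0096). Summed over the list, replicates 1 and 2 held 1242 and 644.6 CPM, replicates 3 and 4 102.8 and 107.7 CPM, and Sham 82.16 to 144.2 CPM.

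Genes of other neighbouring tissues gave scattered values. Of 12 skeletal muscle genes 2 rose and 1 fell (2 and 4 without 5/6 Nx-HPi-Hp replicate 4, 0 and 1 without Sham replicate 2): Mb, myoglobin, and Mylk2, a muscle myosin kinase, rose (3.50 and 1.33) and Acta1, skeletal actin, fell (-2.83, adjusted p = 0.036, kept in 3 of 8 fits), while Ckm had 0.74 (adjusted p = 0.4). Of 5 liver genes 2 rose, Trf (2.24) and Cyp2e1 (5.30, adjusted p = 0.012); Cyp2e1 stood at 521, 210.1, 842 and 24.9 CPM in 5/6 Nx-HPi-Hp in the library order of the fat genes, and Alb and Apoa1, defining genes of liver, had adjusted p of 0.24 and 0.21. Erythroid genes were not called (0 of 8, median -1.44), though 4 were lower without 5/6 Nx-HPi-Hp replicate 4 (median -2.17): Hbb-bs stood at 1535, 475, 157 and 198 CPM in Sham and 63.9, 227, 114 and 423 CPM in 5/6 Nx-HPi-Hp. None of 9 mesothelial genes was called (median 1.37), though 7 were without 5/6 Nx-HPi-Hp replicate 4. Single genes rose in the lymphatic (Reln, of 7), kidney tubule (Lrp2, of 4) and lung and airway (Ager, of 5) lists and none in the pancreatic list (of 2), and Cdh16, Sftpc, Cpa1 and Prox1 stayed under 4 CPM in all 8 libraries. The calls of Reln and Lrp2 were kept in 3 and 2 of the 8 fits without a library, and that of Ager in all 8.

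The 10 protein-coding genes with the largest rise, among those called with at least 200 counts in a group and no overlap, mostly belonged to groups already described. Car3, Cfd and Ifi27l2a rose with the fat genes, Slc6a2 with the neuron genes and Myl7 with the heart genes. Pcsk1n, a neuroendocrine peptide, stood at 0.462, 0.35, 0.316 and 0.158 CPM in Sham and 3.39, 17.3, 2.92 and 29 CPM in 5/6 Nx-HPi-Hp (log2 fold change 5.38 ± 0.82 (SE), adjusted p = 0.009), and Ngfr, a neurotrophin receptor, at 0.809, 0.568, 0.361 and 1.15 CPM and 4.95, 18.9, 1.95 and 28.3 CPM (4.25, adjusted p = 0.0096). Pon1, a lipid-associated esterase, and Cyp2f2, a cytochrome P450, had 4.38 and 3.92, with replicates 1 and 3 highest (adjusted p = 0.0092 and 0.0098).

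Among the 10 with the largest fall were Hspa1b, Hspa1a, Sh3rf2, Pip5k1b, Tes, Ogn, Pgr, Fibin and Nkx6-1. Ogn, which encodes the matrix proteoglycan osteoglycin, stood at 812, 891, 786 and 774 CPM in Sham and 192, 164, 103 and 435 CPM in 5/6 Nx-HPi-Hp (log2 fold change -1.81 ± 0.37 (SE), adjusted p = 0.01). Tes, a focal adhesion protein, went from 138, 168, 118 and 150.1 CPM to 23, 29.2, 17.2 and 85.1 CPM (-1.84, adjusted p = 0.014), and Pgr, the progesterone receptor, from 15.6, 20.9, 23.3 and 18.3 CPM to 4.57, 4.49, 2.62 and 9.9 CPM (-1.78, adjusted p = 0.0096). Those named here other than the Hsp70 genes kept their calls in all 8 fits without a library, and in each of them replicate 4 was the 5/6 Nx-HPi-Hp library nearest Sham. Without Sham replicate 2 the log2 fold changes of Hspa1b and Hspa1a were -1.07 and -0.85.

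The other nephrectomised groups had the same surgery and another diet. Against 5/6 Nx-HPi-Lp, which ate the same phosphorus and 2.5% protein, 1315 of 16198 genes (8.12%) were called, 504 (3.11%) higher in 5/6 Nx-HPi-Hp and 811 (5.01%) lower. Omitting replicate 4 of 5/6 Nx-HPi-Lp left 638 calls, and omitting replicate 2 of 5/6 Nx-HPi-Hp left 682. Both comparisons use the 5/6 Nx-HPi-Hp libraries, so their values are set side by side only. Of 22 SMC contractile genes 14 were higher in 5/6 Nx-HPi-Hp than in 5/6 Nx-HPi-Lp (median log2 fold change 1.63), where the difference from Sham was -0.69. Cnn1 averaged 1796 ± 129 (SD, n = 4) CPM in Sham, 1094 ± 689 (SD, n = 4) CPM in 5/6 Nx-HPi-Hp and 242 ± 96.1 (SD, n = 4) CPM in 5/6 Nx-HPi-Lp (log2 fold change over the latter 2.16 ± 0.45 (SE), adjusted p = 0.015). Myh11 in 5/6 Nx-HPi-Lp stood at 1159, 506, 937 and 477 CPM, each under all 4 of 5/6 Nx-HPi-Hp (2.25 ± 0.43 (SE), adjusted p = 0.012).

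Many inflammation genes and some matrix genes were lower in 5/6 Nx-HPi-Hp than in 5/6 Nx-HPi-Lp. Spp1 was at 246, 1249, 899 and 543 CPM in 5/6 Nx-HPi-Lp, beside 3.66, 4.41, 0.9 and 1.69 CPM in 5/6 Nx-HPi-Hp (log2 fold change -8.11 ± 0.71 (SE), adjusted p = 0.001). Timp1 and C4b were lower in 5/6 Nx-HPi-Hp as well (-4.31 and -2.26, adjusted p = 0.0031 and 0.0037), and Saa3 averaged 109 ± 105 (SD, n = 4) CPM in 5/6 Nx-HPi-Lp. Of 24 macrophage genes 20 were lower in 5/6 Nx-HPi-Hp than in 5/6 Nx-HPi-Lp, of 25 complement and acute-phase genes 17, and of 26 chemokines and cytokines 16. Of 25 collagen genes 9 were lower, and of 21 metalloproteinases and inhibitors 10, while 0 of 35 interferon-stimulated and 0 of 10 MHC class II genes were. Runx2 was lower too (-1.63 ± 0.37 (SE), adjusted p = 0.023). Igf1, higher in 5/6 Nx-HPi-Hp than in Sham, stood at 92, 218, 125 and 166 CPM in 5/6 Nx-HPi-Lp, so the low-protein nephrectomised mice had the higher level (-1.35 ± 0.28 (SE), adjusted p = 0.017).

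Several lists that rose over Sham had no call between the 2 nephrectomised groups on 2% phosphorus. None of the 21 white adipocyte, 13 mitochondrially encoded, 10 mast cell or 93 nuclear respiratory chain genes was called (medians 0.29, 0.026, -0.24 and 0.40). In others there were calls: 3 of 18 sympathetic neuron genes were lower in 5/6 Nx-HPi-Hp (median -2.88), 2 of 11 cardiac genes were higher, and 3 of 19 brown adipocyte genes were higher and 1 lower. Xpr1 had a log2 fold change over 5/6 Nx-HPi-Lp of 0.02 ± 0.33 (SE) (adjusted p = 0.98), Nox4 of 0.76 ± 0.28 (SE) (0.1), Vegfa of 0.06 ± 0.31 (SE) (0.91) and Asns of -0.54 ± 0.44 (SE) (0.43). Each value is given with its SE, and a missed threshold does not show equal levels.

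Against 5/6 Nx-LPi-Lp, on 0.3% phosphorus and 2.5% protein, edgeR called 0 of 15850 genes, with 1420 at an unadjusted p below 0.05, and DESeq2 called 79. Phosphorus and protein both differ in that comparison. Fasn averaged 13058 ± 8029.8 (SD, n = 4) CPM in 5/6 Nx-LPi-Lp and 4539.6 ± 2631 (SD, n = 4) CPM in 5/6 Nx-HPi-Hp (log2 fold change -1.53 ± 0.55 (SE), adjusted p = 0.54). Ifi27l2a had 3.28 ± 0.65 (SE) (adjusted p = 0.49), and Myh11 and Acta2 had 0.04 ± 0.37 (SE) and 0.05 ± 0.51 (SE) (adjusted p = 0.98 and 0.98).

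**Figure D5:**
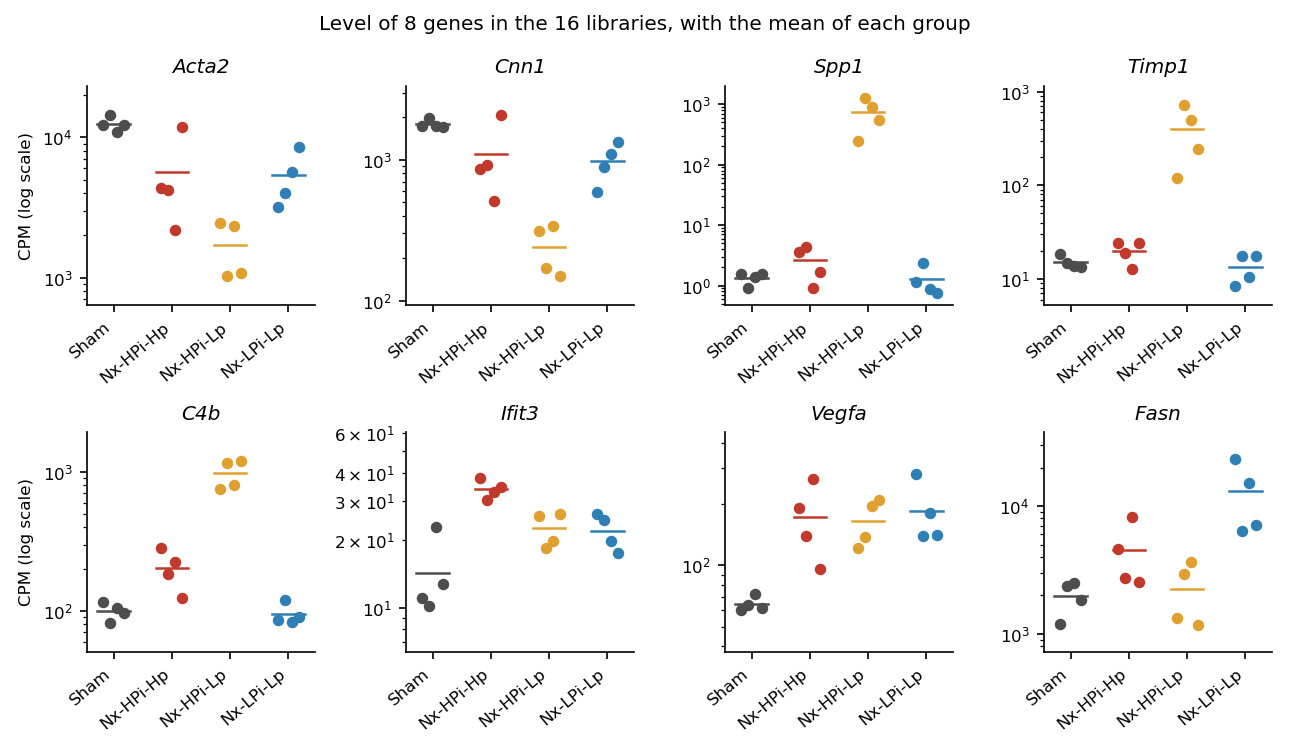
Level of 8 genes (y, CPM, log scale) in the 4 libraries of each of the 4 groups, with the mean of each group as a line. 5/6 Nx-HPi-Hp lies between Sham and 5/6 Nx-HPi-Lp in the means of Acta2, Cnn1, Spp1, Timp1 and C4b, and is above both in Ifit3 and Fasn.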

How the data were processed

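Whole aortas were frozen and ground, RNA was extracted with a column kit, and poly-A RNA was sequenced. Per the study's methods the authors cleaned the reads and mapped them with HISAT2 (genome mm10). Gene counting used featureCounts 1.5.0-p3, per the submitters' processing notes. The deposited values used here are these raw counts per gene, with no scaling; the deposited FPKM values, which the authors divided by gene length and depth, served only for an alternative. Whether counting used strand, and how shared reads were treated, is not given in the sources used here.

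Samples were grouped by their titles. Genes passing edgeR's filter on low counts were tested with edgeR 4.0.16 in R 4.3.3 (TMM scaling, quasi-likelihood test, Benjamini-Hochberg adjustment over all tested genes), in a fit of the 8 libraries compared, without covariates. Genes were called at 0.05 or less for the adjusted p, with a change of 1 or more on the log2 scale. CPM were computed on TMM-scaled library sizes. The test was checked on simulated counts. The tests judged each group difference against the spread between these animals. No pair of libraries agreed within sampling noise, and the labels' replicate numbers did not pair the groups. Tried besides were other scalings (RLE, total counts), other filters, DESeq2 1.42.0, limma 3.58.1 on log2(FPKM + 1) and log2(FPKM + 0.1), a replicate block, and each library left out.

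The groups compared and 52 gene lists (cell type markers and pathways) were chosen with earlier results of these data known. Named genes were those marked as key in a list, up to 2 called genes per list and direction with the largest change, and the 10 highest and 10 lowest called protein-coding genes that averaged 200 counts or more in a group and did not overlap. Some of these genes are not reported here.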

Additional observations from a re-analysis of the deposited data

Results flagged for a closer look

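Summed levels of gene lists, taken on the log2 scale, and library measures such as total counts were examined in 112 groups of 4 libraries. In 8 of these groups, all of them list sums, 1 library lay far from the others (gap over range above the 95% critical value for 4 values). Chance alone marks about 1 in 20 such groups. The sums are printed below as CPM, without the log2 on which the gaps were judged. In Sham, replicate 3 had 7880 CPM of elastic fibre genes (the others 9479 to 9805) and 1862 CPM of immediate early genes (2391 to 2489). Sham replicate 1 had 671.8 CPM of brown adipocyte genes (1039 to 1129), replicate 2 had 776 CPM of Notch pathway genes (879 to 895), and replicate 4 had 485.9 CPM of skeletal muscle genes (415.7 to 421.4). In 5/6 Nx-HPi-Hp, replicate 4 had 1497 CPM of circadian clock genes (2624 to 2877), replicate 3 had 1.875 CPM of kidney tubule genes (6.889 to 8.659), and replicate 1 had 72.77 CPM of lung and airway genes (31.44 to 35.85).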

How the results depend on the processing

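Beside 1932 calls (1495 higher, 437 lower), total-count scaling gave 972 higher and 892 lower, limma on log2(FPKM + 1) gave 878 (595 and 283), the adjusted p alone 4990 (2787 and 2203), and a test against a fold of 1.5 gave 336 (319 and 17). RLE scaling, DESeq2, the other filters, log2(FPKM + 0.1), all 16 libraries in one fit and leaving out mitochondrial or noncoding genes gave between 1529 and 2558. Leaving out 1 library gave 1091 to 3161 calls (874 to 2082 higher, 217 to 1079 lower), the extremes without Sham replicate 2 and without 5/6 Nx-HPi-Hp replicate 4. Over the list medians, total-count scaling turned the sign in 8 lists, each within 0.21 of 0 under TMM.

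Same-numbered libraries did not deviate together (correlations -0.276, -0.208, 0.206 and -0.142), so the numbers only name animals, and a replicate block gave 1557 calls (1043 and 514). Against 5/6 Nx-HPi-Lp, beside 1315 calls, DESeq2 gave 2095, the replicate block 371, and leaving out 1 library 638 to 1558. Against 5/6 Nx-LPi-Lp, beside 0 calls, DESeq2 gave 79, the replicate block 10, and leaving out 1 library 0 to 1.

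With the adipocyte covariate, chosen after the data were seen, 38 genes were called, 38 higher and 0 lower. Under it Fasn (-0.10), Acaca (-0.20), Acadm (-0.10), Acat2 (-0.017), Pfkfb3 (-0.093), Phgdh (-0.17), Mmp3 (0.047) and Lep (-0.46) changed sign. Lep, Plin1 and Adipoq are part of the covariate by construction; for the others the cause was not tested. Depth limits genes under about 1 CPM, whose values rest on few counts in the shallower 5/6 Nx-HPi-Hp libraries.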
